A study of Mus musculus with 4 samples.

Results

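The 10 genes described here belong to the mouse Wnt pathway and were followed through 4 RNA-sequencing libraries of sorted mammary cells. They were chosen by name and identifier from the 54393 genes of the deposited count table: the ligand genes Wnt4, Wnt5a, Wnt5b, Wnt6, Wnt10a and Wnt11, the secreted inhibitor genes Notum and Sfrp1, and the target and feedback genes Axin2 and Lef1. All 10 were present. The libraries came from glands with a conditional knockout (cKO) of DNp63, the N-terminally truncated form of p63 that basal epithelial cells make, and from glands labelled WT. Tamoxifen (1.5 mg/ml, per the labels' protocols, for all groups) was given at puberty, at 4 weeks of age, and glands were taken 5 weeks or 10 days later. A growth note puts the glands at 5 and 35 weeks of age, of which 35 does not follow from those times. There was 1 cKO library and 1 WT library at each time, so n = 2 per genotype. The protocol names iK14-Cre; DNp63 f/f mice, in which an inducible Cre is driven by the keratin 14 promoter of basal cells, as the source of the glands, and gives no separate alleles for WT. Digested glands were depleted by sorting of leukocytes (CD45), endothelium (CD31) and red cells (Ter119). Each library was made from 100000 cells.

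Wnt ligands are secreted glycoproteins that carry a lipid, added by the enzyme Porcn and needed for binding to Frizzled receptors. In the canonical branch, receptor binding stops the breakdown of beta-catenin, which then acts with TCF and LEF factors on target genes. Several targets, Axin2 and Notum among them, dampen the pathway in turn. In the mammary gland, Wnt4 is known as a ligand gene of hormone-sensing luminal cells that acts downstream of progesterone, and Wnt signals are known to sustain basal stem cells. Wnt5a, Wnt5b and Wnt11 are best known for branches that do not act through beta-catenin.

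The Notum protein is a secreted carboxylesterase that removes the ligands' lipid from a serine. The coding bases around that serine are shown because this is the residue through which the inhibitor gene meets the 6 ligand genes. In each line the serine codon is in capitals, and the sequence runs 5′ to 3′ on the coding strand of a GENCODE M21 transcript (GRCm38).
Wnt4: tgcaagtgtcacggggtgTCGggctcctgc
Wnt5a: tgtaagtgtcatggagtgTCTggctcctgt
Wnt5b: tgcaaatgtcacggagtcTCCgggtcctgc
Wnt6: tgtaagtgccatgggcttTCGggttcctgc
Wnt10a: tgcaaatgccacggcaccTCAggcagctgc
Wnt11: tgtaaatgccatggggtgTCTggctcctgc
The serine is codon 212 in Wnt4, 244 in Wnt5a, 236 in Wnt5b, 227 in Wnt6, 268 in Wnt10a and 215 in Wnt11. Between 18 and 26 of the 30 bases were identical in each pair of these genes, and the Wnt5a and Wnt10a stretches shared the fewest. The stretch lies in the last coding exon of Wnt10a, exon 4 of 4, at chr1:74803150-74803179 on the plus strand. In Wnt5b it lies in exon 5 of 5 at chr6:119433800-119433829 on the minus strand. The same pattern of residues was found in the longest coding sequence of all 19 mouse Wnt genes, 6 of them described here.

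Depth and the makeup of the libraries bear on every value below. Estimated counts summed to 34230566 in cKO and 79122250 in WT at 5 weeks, and to 31714181 in cKO and 33363255 in WT at 10 days. Levels are given as CPM (a gene's counts relative to the TMM-scaled library total), where 1 count is worth between 0.0130 and 0.0315 CPM. Trp63, the gene deleted in part, stood at 25.5 CPM in cKO and 160.5 CPM in WT at 5 weeks, and at 12.8 CPM in cKO and 46.8 CPM in WT at 10 days. All 10 basal markers were lower in cKO at both times, with sums of 1289 CPM in cKO against 18490 CPM in WT at 5 weeks and 1280 CPM in cKO against 4432 CPM in WT at 10 days. The 12 squamous epithelial markers were also all lower at both times, with sums of 173.0 CPM in cKO against 3791 CPM in WT at 5 weeks and 126.8 CPM in cKO against 771.8 CPM in WT at 10 days. Luminal markers summed to between 6822 and 9118 CPM. Although labelled epithelial, all 4 libraries carried fibroblast markers, which summed to 61194 CPM in cKO against 32252 CPM in WT at 5 weeks and to 39061 CPM in cKO against 39712 CPM in WT at 10 days. Endothelial markers remained despite the CD31 sort, and all 8 were higher in cKO at both times. They summed to 265.1 CPM in cKO against 155.5 CPM in WT at 5 weeks, and to 166.4 CPM in cKO against 114.6 CPM in WT at 10 days. Of 8 pericyte markers 6 were higher in cKO at both times and 0 lower at both, and the same held for 8 adipocyte markers. In such bulk samples, fewer cells of a type and less RNA per cell cannot be told apart. The part that these marker differences play in the results was not tested.

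Genotype was compared across 18917 genes with edgeR's quasi-likelihood test, with a term for time point, and all 10 Wnt genes passed the filter on low counts. Notum passed it through its WT libraries alone, so it had to differ, and its place in the counts and the median that follow is a description only. None of the 10 reached an adjusted p (Benjamini-Hochberg over all genes) of 0.05, where 0.0581% of tested genes did. Apart from Notum, an unadjusted p under 0.05 was reached by Wnt10a, lower in cKO, and Wnt5a, higher in cKO, against 11.6% of all genes (5.8% in each direction). By DESeq2, Wnt10a was called lower in cKO, where 2.71% of genes were called and 1.46% were called lower, and Notum was called as well. By limma-voom 0 of the 10 were called, where 0.153% of genes were. Both cKO libraries lay below both WT libraries for 5 of the 10 genes (Wnt5b, Wnt6, Wnt10a, Notum and Sfrp1), against 23.3% of all tested genes, and above both for 3 (Wnt5a, Axin2 and Lef1), against 22.6%. Wnt4 and Wnt11 overlapped between genotypes and had opposite signs at the 2 times, as did 39.8% of all tested genes. The median log2 fold change, cKO over WT, was -0.23 for the 10 and -0.01 for all tested genes. With 1 library per genotype and time, the 1 residual degree of freedom is how far the genotype difference disagreed between the 2 times. edgeR steadies that value with those of other genes. The p-values thus measure no spread between replicates of a condition. Whether each library is a separate animal is not stated, so differences among these 4 libraries may be technical.

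**Figure D1:**
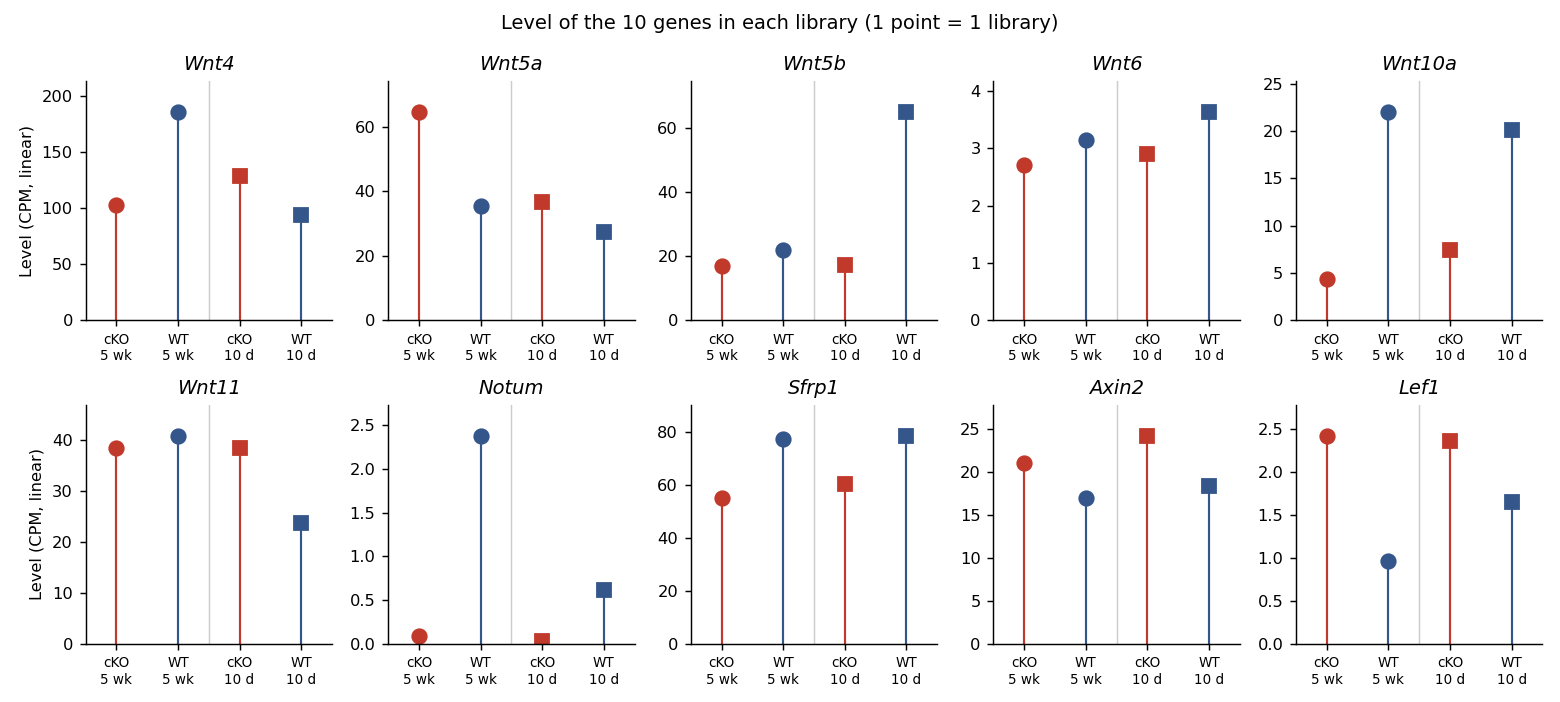
Level of each of the 10 genes in CPM (linear axis from 0, a scale of its own per gene) in each library, with cKO in red, WT in blue, circles for 5 weeks and squares for 10 days. Wnt10a and Notum sit low in both cKO libraries, Wnt5b is high in the WT library at 10 days at 65.0 CPM, and Wnt4 is high in the WT library at 5 weeks at 185.6 CPM.

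Wnt10a had the largest fitted genotype difference of the 6 ligand genes over both times, while at 10 days alone Wnt5b differed more. It encodes a canonical ligand known from skin, teeth and other ectodermal organs, and lies at chr1:74791516-74804179 on the plus strand, 6.2 kb downstream of Wnt6. At 5 weeks it stood at 4.39 CPM in cKO against 22.0 CPM in WT, and at 10 days at 7.37 CPM in cKO against 20.1 CPM in WT. Both cKO libraries were low and both WT libraries high, with no overlap. The SD between the 5-week and the 10-day library was 2.11 CPM in cKO and 1.39 CPM in WT (n = 2 each). It holds any change with time and is not a spread of replicates at 1 time. The fitted log2 fold change was -1.88 (SE 0.329), or 3.69-fold lower in cKO, with an unadjusted p of 0.00159 and an adjusted p of 0.215 by edgeR's quasi-likelihood test, which missed the threshold. DESeq2 gave an adjusted p of 0.000353 with the same log2 fold change. Within a time point, WT exceeded cKO 5.02-fold at 5 weeks (95% exact interval 4.24 to 5.97) and 2.72-fold at 10 days (2.34 to 3.17). These intervals cover counting error only. Set against the summed basal markers, which were themselves lower in cKO, Wnt10a stood at 3.41 CPM in cKO and 1.19 CPM in WT per 1000 CPM of basal markers at 5 weeks, and at 5.76 CPM in cKO and 4.53 CPM in WT at 10 days. On that scale the order of the genotypes was turned round, which was not particular to Wnt10a. All of the 10 genes but Wnt5b and Notum stood higher in cKO at both times on it. Sfrp1, also lower in cKO by CPM, stood at 42.7 CPM in cKO and 4.19 CPM in WT at 5 weeks, and at 47.1 CPM in cKO and 17.8 CPM in WT at 10 days.

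Wnt6, its neighbour at chr1:74771892-74785322 and also known from ectoderm, was low in all 4 libraries. It stood at 2.71 CPM in cKO against 3.15 CPM in WT at 5 weeks, and at 2.90 CPM in cKO against 3.63 CPM in WT at 10 days. Both counting intervals of the ratio included no difference, and the fitted log2 fold change was -0.27 (SE 0.368, adjusted p = 0.827 by edgeR).

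For Wnt5b a single library decided the size of the difference. The gene encodes a ligand close to Wnt5a and spans chr6:119432531-119544347 on the minus strand. It stood at 17.0 CPM in cKO against 22.0 CPM in WT at 5 weeks, and at 17.3 CPM in cKO against 65.0 CPM in WT at 10 days. The cKO libraries were nearly level with each other, and the WT library at 10 days stood far above the other 3. The log2 fold change was -1.14 (SE 0.436, unadjusted p = 0.0532, adjusted p = 0.437 by edgeR). Without the WT library at 10 days it was -0.35, and without the WT library at 5 weeks -1.92, both without the time term. WT over cKO was 1.29-fold at 5 weeks (counting interval 1.17 to 1.42) and 3.76-fold at 10 days (3.42 to 4.13).

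RefSeq (GRCm38.p6) gave promoters for 6 of the 10 genes, 12 start sites in all, and those of Wnt5b and Wnt11 that hold a searched motif are shown. The 250 bases before each start were searched on both strands for a TCF/LEF motif, CTTTG followed by 2 bases that are each A or T, and for the half-site of the p53 family, to which p63 belongs. The motifs did not overlap each other in these windows. Matches are in capitals.
Wnt5b, chr6:119449387-119449636, minus strand: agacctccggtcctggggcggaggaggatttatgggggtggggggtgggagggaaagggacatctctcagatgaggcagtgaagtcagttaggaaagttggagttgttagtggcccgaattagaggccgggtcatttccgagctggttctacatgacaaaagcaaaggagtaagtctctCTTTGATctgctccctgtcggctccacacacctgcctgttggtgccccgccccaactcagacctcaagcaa
Wnt11, chr7:98834862-98835111, plus strand: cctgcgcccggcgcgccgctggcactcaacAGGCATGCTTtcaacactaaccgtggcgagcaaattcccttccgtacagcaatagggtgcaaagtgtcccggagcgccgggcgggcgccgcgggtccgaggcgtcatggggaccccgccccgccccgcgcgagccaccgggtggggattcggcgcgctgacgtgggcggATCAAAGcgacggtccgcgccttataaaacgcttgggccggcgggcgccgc
In Wnt5b the TCF/LEF match begins 71 bases before the innermost of 3 starts. In Wnt11 a half-site match begins 220 bases and a TCF/LEF match 51 bases before the start. A TCF/LEF match stood in 3 of the 12 windows and in 14.8% of all 32851 promoters, and a half-site match in 1 of the 12 and in 7.1% of all. The remaining TCF/LEF match was in a promoter of Lef1, and the Axin2, Wnt4 and Wnt6 windows held neither motif.

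Wnt4, the most abundant of the 10 genes per length, went opposite ways at the 2 times. It lies at chr4:137277489-137299726 on the plus strand. At 5 weeks it stood at 103.0 CPM in cKO against 185.6 CPM in WT, and at 10 days at 128.3 CPM in cKO against 93.7 CPM in WT. The WT libraries were the highest and the lowest of the 4, and both cKO libraries lay between them. The log2 ratio of cKO over WT was -0.85 at 5 weeks and 0.45 at 10 days, both beyond counting error, and the fitted value over both times was -0.20 (SE 0.365, adjusted p = 0.878 by edgeR). Without the WT library at 5 weeks, and without the time term, it was 0.30. Hormone-sensing luminal markers, 8 genes of the cells in which Wnt4 is best known, summed to 2071 CPM in cKO against 1697 CPM in WT at 5 weeks and to 2066 CPM in cKO against 937.8 CPM in WT at 10 days.

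Wnt5a, at chr14:28504750-28527448, was higher in both cKO libraries than in either WT library. It stood at 64.5 CPM in cKO against 35.3 CPM in WT at 5 weeks, and at 36.6 CPM in cKO against 27.3 CPM in WT at 10 days. The lower cKO library lay barely above the higher WT library, and the cKO library at 5 weeks stood apart. The log2 fold change was 0.65 (SE 0.223, unadjusted p = 0.0294, adjusted p = 0.388 by edgeR), and without the cKO library at 5 weeks, and without the time term, it was 0.21. Set against the summed fibroblast markers, Wnt5a stood at 1.05 CPM in cKO and 1.09 CPM in WT per 1000 CPM of those markers at 5 weeks, and at 0.938 CPM in cKO and 0.686 CPM in WT at 10 days.

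Wnt11, at chr7:98835112-98855195, had nearly the same level in 3 of the libraries. It stood at 38.6 CPM in cKO against 40.9 CPM in WT at 5 weeks, and at 38.5 CPM in cKO against 23.7 CPM in WT at 10 days. The WT library at 10 days was the low one. The log2 fold change was 0.30 (SE 0.266, adjusted p = 0.717 by edgeR), and without that library, and without the time term, it was -0.09.

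Levels of different genes are comparable per length only, here as CPM per kilobase of merged exons. Over the 19 mouse Wnt ligand genes these summed to 80.4 in cKO against 102.4 in WT at 5 weeks, and to 76.6 in cKO against 82.6 in WT at 10 days. Wnt4 gave 30.5% of that sum in cKO against 43.2% in WT at 5 weeks, and 39.9% in cKO against 27.1% in WT at 10 days. Wnt5b gave between 7.98% and 8.52% in 3 libraries and 29.7% in the WT library at 10 days. Wnt10a gave 2.21% in cKO against 8.71% in WT at 5 weeks and 3.90% in cKO against 9.84% in WT at 10 days, while Wnt5a gave 10.3% in cKO against 4.41% in WT at 5 weeks and 6.11% in cKO against 4.22% in WT at 10 days. Wnt4 led in every library but WT at 10 days, where Wnt5b stood at 24.5 and Wnt4 at 22.3 CPM per kb.

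**Figure D2:**
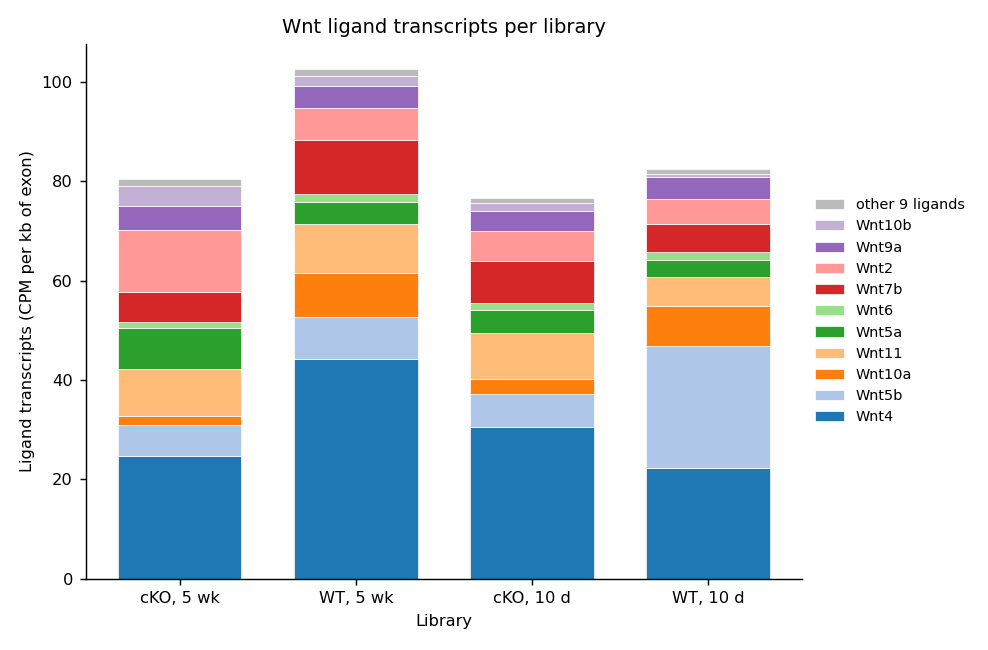
Stacked level of the Wnt ligand genes in CPM per kilobase of exon (linear axis from 0) in each library. Wnt4 is the largest block in 3 libraries, the Wnt5b block is large in WT at 10 days (29.7%), and the Wnt10a block is thin in both cKO libraries (2.21% and 3.90%).

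Among the inhibitor genes, Notum had the largest genotype difference of all 10 genes at a very low level. It lies at chr11:120653788-120661175 on the minus strand. It had 3 counts in cKO against 183 in WT at 5 weeks, and 1 count in cKO against 21 in WT at 10 days. In CPM these are 0.0884 in cKO against 2.38 in WT, and 0.0315 in cKO against 0.610 in WT. Transcripts were thus at the edge of detection in both cKO libraries and few in WT at 10 days, with no overlap between genotypes. WT exceeded cKO 26.9-fold at 5 weeks (counting interval 9.08 to 131.9) and 19.4-fold at 10 days (3.11 to 800.9). The fitted log2 fold change was -4.53 (SE 0.648, unadjusted p = 0.000590, adjusted p = 0.145 by edgeR), and DESeq2 gave an adjusted p of 0.0209. Since Notum passed the filter through its WT libraries alone, it had to differ, and these p-values are a description only. Per 1000 CPM of basal markers, Notum stood at 0.0686 CPM in cKO against 0.129 CPM in WT at 5 weeks and at 0.0246 CPM in cKO against 0.138 CPM in WT at 10 days. With 3 counts and 1 count behind the cKO values, no order of the genotypes can be read on that scale. The antisense gene Notumos, whose exons overlap it, had 6 counts in WT at 5 weeks and 0 in the other libraries.

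Sfrp1 encodes a secreted Frizzled-related protein that binds Wnt ligands outside the cell, and lies at chr8:23411502-23449632. It stood at 55.0 CPM in cKO against 77.4 CPM in WT at 5 weeks, and at 60.3 CPM in cKO against 78.7 CPM in WT at 10 days. Both WT libraries were nearly level, and both cKO libraries lay below them. Over the 2 times, the mean was 57.6 ± 3.78 CPM in cKO and 78.0 ± 0.914 CPM in WT (SD, n = 2 each). Each SD is between a 5-week and a 10-day library, so it is not a spread of replicates at 1 time. The log2 fold change was -0.44 (SE 0.189, unadjusted p = 0.0632, adjusted p = 0.458 by edgeR). It was the steadiest of the lower genes when a library was left out, between -0.51 and -0.39 without the time term.

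Axin2 and Lef1, the target and feedback genes, had higher levels in cKO than in WT at both times, by amounts that did not pass the test. Axin2, a scaffold of the complex that breaks down beta-catenin and a widely used readout of the canonical branch, lies at chr11:108920349-108950783. It stood at 21.1 CPM in cKO against 17.0 CPM in WT at 5 weeks, and at 24.2 CPM in cKO against 18.4 CPM in WT at 10 days. The genotypes did not overlap, and the ratio exceeded counting error at both times, at 1.24-fold (1.13 to 1.36) and 1.32-fold (1.18 to 1.46). The log2 fold change was 0.35 (SE 0.227, adjusted p = 0.612 by edgeR).

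Lef1, one of the DNA-binding partners of beta-catenin, lies at chr3:131110471-131224356 and was scarce. It had 82 counts in cKO against 74 in WT at 5 weeks, and 75 in cKO against 57 in WT at 10 days, or 2.42 CPM in cKO against 0.963 in WT and 2.36 CPM in cKO against 1.65 in WT. The cKO libraries were level and above both WT libraries. The ratio of cKO over WT was 2.51-fold at 5 weeks (counting interval 1.81 to 3.48). At 10 days it was 1.43-fold (0.998 to 2.05), an interval that included no difference. The log2 fold change was 0.92 (SE 0.452, unadjusted p = 0.0911, adjusted p = 0.506 by edgeR). Lymphocytes, which also express Lef1, carry CD45 and should have been removed by the sort. Their markers summed to 49.5 CPM in cKO against 18.7 CPM in WT at 5 weeks and to 26.8 CPM in cKO against 14.5 CPM in WT at 10 days, with all 8 higher in cKO at both times. Myeloid markers, also of CD45 cells, summed to 233.6 CPM in cKO against 163.7 CPM in WT at 5 weeks and to 183.0 CPM in cKO against 199.6 CPM in WT at 10 days. Gene by gene, 6 of the 8 myeloid markers were higher in cKO at both times and 0 were lower at both. The part of lymphocytes or myeloid cells in the Lef1 values was not tested.

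**Figure D3:**
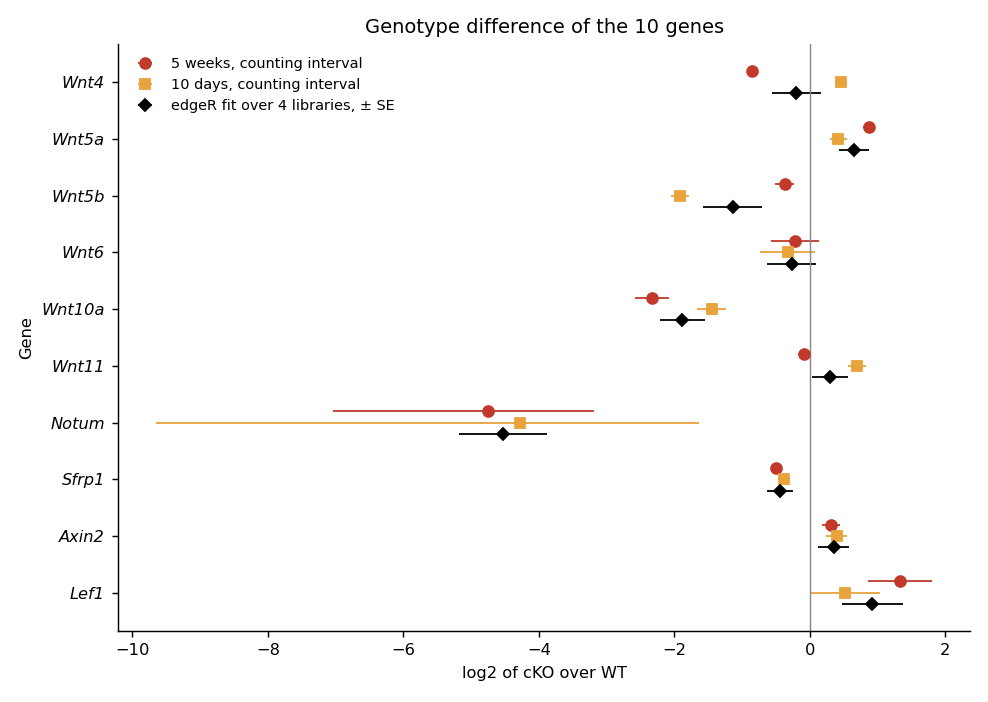
Log2 of cKO over WT for each gene at 5 weeks (red circles) and 10 days (orange squares) with 95% counting intervals, and the edgeR estimate over the 4 libraries with its SE (black diamonds). Notum (-4.53) and Wnt10a (-1.88) lie furthest to the left, and the 2 points of Wnt4 lie on opposite sides of 0.

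Time was compared in the same fit, 5 weeks over 10 days with genotype held constant. None of the 10 genes was called by edgeR, where 0.0634% of all tested genes were, and DESeq2 also called none, where 1.01% were. Notum and Wnt5a reached an unadjusted p under 0.05, both higher at 5 weeks, against 5.35% of genes in either direction and 3.09% higher. Notum had a log2 fold change of 1.86 (SE 0.597, adjusted p = 0.753 by edgeR) and was 3.91-fold higher at 5 weeks than at 10 days in WT. Wnt5a had 0.59 (SE 0.223, adjusted p = 0.884 by edgeR), and was 1.76-fold higher at 5 weeks than at 10 days in cKO and 1.29-fold higher in WT. In WT, Wnt4 was 1.98-fold and Wnt11 1.72-fold higher at 5 weeks than at 10 days, whereas Wnt5b was 2.96-fold lower. In cKO the log2 ratio of 5 weeks over 10 days was -0.32 for Wnt4, 0.00 for Wnt11 and -0.02 for Wnt5b. A difference between genotypes in the effect of time leaves no residual in this design and was not tested.

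The genes whose log2 CPM profile over the 4 libraries lay nearest to that of each Wnt gene were taken from 11235 genes with a mean of at least 5 CPM, without pseudogenes and provisional names. With 4 libraries such likeness describes order and spacing only. The nearest to Wnt10a was the basal keratin gene Krt17 (distance 0.311 log2 units), at 190.0 CPM in cKO against 733.0 CPM in WT at 5 weeks and 296.6 CPM in cKO against 682.9 CPM in WT at 10 days, followed by Ovol1. For Wnt5b they were Sox10 (0.106), Mex3a and Pdlim3. Sox10, a transcription factor gene, stood at 48.8 CPM in cKO against 60.8 CPM in WT at 5 weeks and at 53.1 CPM in cKO against 188.7 CPM in WT at 10 days. Those nearest to Notum were Fat2 (0.576), Grhl3 and Rxfp1, all of them less close than the neighbours of the other 9 genes. Serinc2 was nearest to Wnt4 (0.0412), Aoc3 to Wnt5a (0.0693) and Rasl11a to Wnt11 (0.0270). For Lef1 the closest were C1qa (0.145) and Csf1r, both macrophage genes, and Ddx60.

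The rest of the pathway was read from 9 lists of 98 further Wnt genes, 87 of which passed the filter. None of the 87 was called for genotype by edgeR, and 8 lower and 4 higher reached an unadjusted p under 0.05, against 5.8% of all genes in each direction. Wnt9b, 1 of the 8 lower, passed the filter through its WT libraries alone, so it had to differ. It had 4 counts in cKO against 26 in WT at 5 weeks, and 2 in cKO against 25 in WT at 10 days. Its place in these counts and shares is a description only. DESeq2 called 1 of the 87, the Frizzled receptor gene Fzd4 (adjusted p = 0.0130), as higher, where 1.25% of genes were, and limma-voom called 0. With no filter on low counts, edgeR called 5 of them, Fzd4 higher and Celsr1, Celsr2, Rnf43 and Ccnd1 lower (adjusted p from 0.000951 to 0.0369). That fit called 1235 of 33332 genes, 565 higher and 670 lower. The median log2 fold change of the 87 was -0.08. Both cKO libraries lay below both WT libraries for 27.6% of them and above both for 12.6%, against 23.3% and 22.6% of all tested genes. Fzd4 stood at 71.5 CPM in cKO against 33.6 CPM in WT at 5 weeks, and at 44.0 CPM in cKO against 20.4 CPM in WT at 10 days (log2 fold change 1.10, SE 0.202, adjusted p = 0.217 by edgeR).

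Among the 13 other ligand genes, 7 passed the filter, Wnt9b through its WT libraries alone, with a median log2 fold change of 0.54. Wnt10b, a canonical ligand gene and the closest relative of Wnt10a, stood opposite to it. It was at 13.6 CPM in cKO against 6.79 CPM in WT at 5 weeks and at 5.19 CPM in cKO against 2.15 CPM in WT at 10 days (log2 fold change 1.13, SE 0.320, adjusted p = 0.325 by edgeR). Wnt2 had a log2 fold change of 0.63 and Wnt7b of -0.12. The lipid-adding enzyme gene Porcn (0.36) and the ligand carrier gene Wls (0.07) did not pass.

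Of the 16 receptor genes, 2 lower and 1 higher reached an unadjusted p under 0.05, where 5.8% of all genes did in each direction. Lrp5, a coreceptor gene, had a log2 fold change of -0.08 (adjusted p = 0.931 by edgeR). After Fzd4 the smallest p belonged to Ptk7, a pseudokinase of the planar polarity branch, at 107.8 CPM in cKO against 165.8 CPM in WT at 5 weeks and 102.7 CPM in cKO against 192.9 CPM in WT at 10 days (log2 fold change -0.77, adjusted p = 0.316 by edgeR). In the list of that branch, 5 of 8 genes lay lower in cKO at both times and 0 higher, where 30.4% and 29.7% of all tested genes did. This was not particular to that branch. For the destruction complex and Dishevelled, 6 of 11 lay lower and 1 higher. For TCF factors and nuclear partners, 7 of 13 lay lower and 1 higher. The other ligands (1 of 7 lower, 4 higher) and other target genes (1 of 10 lower, 4 higher) leaned the other way. Celsr2 had a log2 fold change of -0.88 and Vangl2 of -0.71, neither past the threshold (adjusted p = 0.292 and 0.402 by edgeR).

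In the R-spondin axis, Rnf43 and Znrf3, genes of the ubiquitin ligases that remove Frizzled receptors and are themselves Wnt targets, had log2 fold changes of -0.86 and -0.58 (adjusted p = 0.300 and 0.443 by edgeR). Lgr6, an R-spondin receptor gene, stood at 53.3 CPM in cKO against 49.4 CPM in WT at 5 weeks, and at 53.3 CPM in cKO against 133.0 CPM in WT at 10 days. Rspo1, named after its values were seen, had the same high library in a more extreme form. This ligand gene, which amplifies Wnt signals, stood at 3.77 CPM in cKO against 4.15 CPM in WT at 5 weeks, and at 2.83 CPM in cKO against 91.2 CPM in WT at 10 days. Its log2 fold change was -2.58 (SE 1.79, adjusted p = 0.682 by edgeR), and without the WT library at 10 days, and without the time term, it was -0.33. The WT library at 10 days is thus the highest of the 4 for Wnt5b, Lgr6 and Rspo1. It is also the highest for other genes of these lists, such as Ptk7, Rnf43, Znrf3 and Ccnd1, and the share over all genes was not counted.

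Of 11 other secreted inhibitor genes tested, Sfrp4 had a log2 fold change of 0.70, Wif1 of -0.66 and Sfrp2 of 0.11 (adjusted p = 0.338, 0.391 and 0.940 by edgeR). Inside the cell the differences were small. The 11 genes of the destruction complex and Dishevelled had a median of -0.16, with Ctnnb1, the beta-catenin gene, at -0.23, Axin1 at -0.29 and Apc at 0.24. The 13 TCF factors and nuclear partners also had a median of -0.16, with Pygo2 at -0.33, Ctbp1 at -0.30 and Tle3 at -0.28. Of the other target genes, Ccnd1, the cyclin D1 gene, had -0.88 (adjusted p = 0.388 by edgeR), Twist1 0.71 and Myc 0.40. Ccnd1 stood at 138.6 CPM in cKO against 180.0 CPM in WT at 5 weeks, and at 91.5 CPM in cKO against 239.4 CPM in WT at 10 days. Proliferation markers, of which 7 of 8 were lower in cKO at both times, summed to 85.6 CPM in cKO against 214.4 CPM in WT at 5 weeks and to 22.5 CPM in cKO against 116.2 CPM in WT at 10 days, and their part in the Ccnd1 values was not tested.

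**Figure D4:**
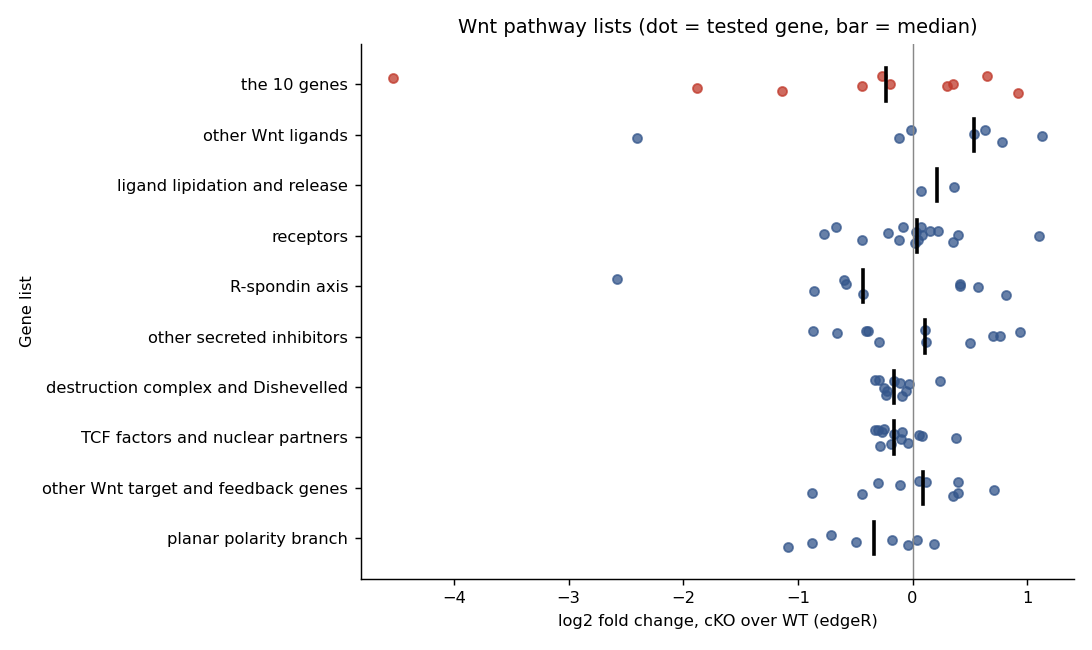
Log2 fold change (cKO over WT, edgeR) of each tested gene (dots) in the 10 genes described (red) and in the 9 further Wnt lists (blue), with list medians as bars. The 10 genes run from Notum at -4.53, which passed the filter through its WT libraries alone, to Lef1 at 0.92. Apart from Notum, their lowest value is that of Wnt10a at -1.88. The destruction complex and TCF lists lie close to a median of -0.16.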

How the data were processed

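The deposited values are estimated counts, whole numbers on no common scale, for 54393 genes in 4 libraries. Per the submitters' processing notes, Salmon and the GRCm38 build were used, without a version. All identifiers matched GENCODE M21, which gave symbols, positions and merged exon lengths. The authors' annotation and strand setting are not given in the sources used here. Reads of a gene and its antisense partner cannot be told apart.

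The 18917 genes kept by filterByExpr at a minimum count of 10 were TMM-scaled. A robust quasi-likelihood fit in edgeR 4.0.16 (R 4.3.3) had terms for time point and genotype and 1 residual degree of freedom (common biological coefficient of variation 0.286). Time is the block, since each time holds 1 library per genotype. Each SE was derived from the log2 fold change and its F statistic. Ratios within a time have exact binomial intervals of 95% for counting error, and log2 ratios use a prior count of 2. DESeq2 1.42.0 and limma 3.58.1 served as alternatives.

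The 10 genes and all lists were chosen with earlier results of these data known. Named from each further list were the 2 smallest p at a mean of at least 1 CPM and the most abundant gene. Coding stretches came from GENCODE transcripts in place of a protein table. The p53-family half-site was added after the values were seen.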

Additional observations from a re-analysis of the deposited data

Results flagged for a closer look

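For 6 of the genes named above, the ratio of cKO over WT was beyond counting error at both times and in opposite directions. Each point is 1 library against 1 library, and the difference between times was not tested. The log2 ratio at 5 weeks minus that at 10 days was -1.30 for Wnt4 (-0.85 at 5 weeks and 0.45 at 10 days), -1.45 for Wnt7b (-0.85 and 0.60), -1.09 for Porcn (-0.18 and 0.90) and -0.51 for Lrp5 (-0.33 and 0.18). It was 1.43 for Lgr6 (0.11 and -1.32) and 1.34 for Sfrp2 (0.78 and -0.56). Of all tested genes, 39.8% had opposite signs at the 2 times, a looser rule that does not ask for ratios beyond counting error. The share of all genes under the stricter rule was not counted, so the 6 cannot be set against it.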

How the results depend on the processing

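The number of genes called for genotype was 11 and moved with the fit: 5 with DESeq2 size factors, 3 with upper-quartile factors, 29 with limma-voom, 512 with DESeq2, 1235 with no filter on low counts and 0 without the time term, which is the replicate block here (2182 unadjusted at 0.05). With each library omitted in turn, which also drops the time term, the count ran between 0 and 60: 60 without WT at 10 days, 1 without WT at 5 weeks, 0 without cKO at 10 days (1396 unadjusted) and 0 without cKO at 5 weeks (1111 unadjusted). For time, 12 calls became 192 with DESeq2 and 1 without the genotype term. The cause of these shifts was not tested. Of the 10 Wnt genes, DESeq2 called Notum and Wnt10a. The edgeR fit with no filter called these and Wnt5b (adjusted p = 0.00126), all lower. That fit called 1235 of 33332 genes, 670 of them lower. No other fit called any of the 10. The DESeq2 call of Notum is a description only, since that gene passed the filter through its WT libraries alone. For genotype, the direction of 8 of the 10 held under each alternative that could be fitted. Wnt4 (-0.20) was 0.30 without the WT library at 5 weeks (range -0.68 to 0.30 over left-out libraries), and Wnt11 (0.30) was -0.09 without the WT library at 10 days (range -0.09 to 0.70). Notum ran from -5.49 to -3.25 and Wnt10a from -2.27 to -1.53. Notum, Wnt6 and Lef1 dropped out at a minimum of 5 CPM in 2 libraries. Ratios within a time stayed within their counting intervals under other prior counts and scaling. The counts of 5 lower and 3 higher genes without overlap were 5 and 3 under both other scalings, a check added after the data were seen. Depth limits Notum most, with 3 counts and 1 count in cKO.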
